A study of Mus musculus with 71 samples.

Results

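The genes described here are 32 enzymes, carriers and regulators of glycolysis and of the cellular response to low oxygen, measured in microglia, the resident macrophages of the brain. They were listed by symbol, but with earlier results of these data known, so shares of members called are a description of this list. The list holds 4 genes of glucose entry and phosphorylation, 7 of upper glycolysis, 6 of lower glycolysis and 4 lactate enzymes and carriers. It also holds 3 flux regulators and 8 genes of the hypoxia response. They are taken out of 55413 symbols in each of 6 expression tables, all of which hold all 32. The 67 bulk libraries came from mice carrying a Spp1-GFP reporter, in which the gene for osteopontin drives green fluorescent protein, and from controls, in 6 models of brain injury or disease. Cells were sorted as GFP-positive or GFP-negative, and each library was made from 2000 sorted cells by a full-length, SMART-Seq2-type method. Values are TPM, a transcript's level per unit of its length and scaled to a fixed total in each library. Levels can be read between genes of a library. Between libraries the fixed total means that a rise of some genes lowers the values of others.

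In 4 models the reference is the brain of untreated wild-type mice and the sorted cells come from Spp1-GFP heterozygous mice. For cuprizone, a copper chelator that strips myelin when fed, mice were 8 to 10 weeks old and received it for 5 weeks (4 control, 3 GFP-negative and 3 GFP-positive libraries). In the CT2a glioma model, an implanted mouse glioma line, brains of mice of that age were taken 21 days after inoculation (4 libraries in each group). Mice with experimental autoimmune encephalomyelitis (EAE), an immune attack on myelin, were taken at a clinical score of 1 to 2 at the same age (3 in each group). The 5xFAD mice, which carry human amyloid-precursor and presenilin transgenes, were heterozygous for 5xFAD and for Spp1-GFP and 7 months old, as were their wild-type controls (4 in each group). In the other two models the tissue was the cortex after a stroke at postnatal day 6 (P6), collected at day 9, or at day 28 (P28), collected at day 35, with the contralateral cortex of Spp1-GFP heterozygous mice as reference (4 in each group). The column headers of the contralateral libraries mark them as GFP-negative. In the 4 adult disease models genotype, disease and sort gate change together against the control, so their parts cannot be told apart; between GFP-positive and GFP-negative cells of 1 model only the gate differs. The labels used here name no sex. Xist, expressed from the inactive X of females, was above the Y-linked Ddx3y in 2 of 4 cuprizone controls and 0 of 3 libraries of each sorted cuprizone group, so sex also differs in the cuprizone contrasts with control. It was above in 2 of 4 libraries of each P6 stroke group, in all 4 of each 5xFAD group, and in 0 libraries of the remaining models. Against the 2 male cuprizone controls alone, 0 members were called in GFP-negative and 14 in GFP-positive cells, beside 0 and 13 with all 4 controls. The labels do not say that libraries of a group come from separate animals, so p-values measure only the spread between these libraries.

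Glycolysis turns glucose into pyruvate in the cytosol. Hexokinases trap glucose in the cell, phosphofructokinase sets the pace of the upper part, phosphoglycerate kinase and pyruvate kinase return ATP in the lower part, and lactate dehydrogenase can pass the pyruvate on to lactate, which monocarboxylate carriers export. The hypoxia-inducible factor HIF-1 is a transcription factor whose alpha subunit, the product of Hif1a, is marked for destruction by oxygen-dependent prolyl hydroxylases (Egln1 and Egln3) and otherwise drives many of the same enzymes. Activated macrophages and microglia are known to raise glycolysis, and microglia around damage carry Spp1 as part of a disease-associated programme.

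The promoters of 6 members that the results turn on are shown first, since HIF-1, which drives many of these enzymes, acts through a short DNA element. Each is the 250 bases before a RefSeq transcript start in build GRCm38.p6, 5′ to 3′ on the strand of the gene, with capitals marking every match on either strand to ACGTG, 1 spelling of the core of the HIF-response element; a CACGTG holds it on both strands and counts as 2 matches.
Pgk1 (chrX:106186850-106187099, plus strand): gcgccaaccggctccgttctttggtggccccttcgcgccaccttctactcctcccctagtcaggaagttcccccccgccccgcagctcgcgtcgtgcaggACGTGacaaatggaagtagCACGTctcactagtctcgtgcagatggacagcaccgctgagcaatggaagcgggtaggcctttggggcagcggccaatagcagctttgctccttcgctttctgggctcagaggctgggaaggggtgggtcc
Ldha (chr7:46845554-46845803, plus strand): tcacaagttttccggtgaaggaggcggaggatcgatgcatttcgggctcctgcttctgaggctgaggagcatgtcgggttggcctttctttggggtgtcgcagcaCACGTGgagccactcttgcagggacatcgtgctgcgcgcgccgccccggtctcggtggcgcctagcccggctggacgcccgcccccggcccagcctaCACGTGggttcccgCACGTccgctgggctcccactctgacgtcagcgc
Egln3 (chr12:54203875-54204124, minus strand): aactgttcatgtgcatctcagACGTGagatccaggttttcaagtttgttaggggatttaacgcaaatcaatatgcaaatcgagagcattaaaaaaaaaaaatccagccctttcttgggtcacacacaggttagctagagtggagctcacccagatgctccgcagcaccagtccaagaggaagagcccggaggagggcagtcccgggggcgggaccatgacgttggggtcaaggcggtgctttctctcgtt
Hk2 (chr6:82774455-82774704, minus strand): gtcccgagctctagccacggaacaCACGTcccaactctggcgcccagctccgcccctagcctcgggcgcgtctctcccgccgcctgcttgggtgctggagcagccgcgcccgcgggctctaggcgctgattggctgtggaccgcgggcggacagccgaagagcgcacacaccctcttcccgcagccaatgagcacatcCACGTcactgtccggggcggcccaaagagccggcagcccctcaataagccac
Ldhb (chr6:142507958-142508207, minus strand): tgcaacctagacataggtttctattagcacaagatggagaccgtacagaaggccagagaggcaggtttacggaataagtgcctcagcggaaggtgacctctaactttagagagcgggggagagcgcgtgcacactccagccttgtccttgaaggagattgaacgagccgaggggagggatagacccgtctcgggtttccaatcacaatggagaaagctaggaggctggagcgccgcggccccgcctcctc
Mif (chr10:75860278-75860527, minus strand): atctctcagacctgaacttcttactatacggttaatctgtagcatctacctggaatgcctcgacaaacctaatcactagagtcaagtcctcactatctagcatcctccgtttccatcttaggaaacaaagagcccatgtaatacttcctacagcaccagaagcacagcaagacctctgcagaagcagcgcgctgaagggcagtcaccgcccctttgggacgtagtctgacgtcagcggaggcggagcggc
The windows of Pgk1, Ldha, Egln3 and Hk2 held 2, 5, 1 and 2 matches, a second annotated Ldha start had 0, and those of Ldhb and Mif held 0. Other spellings of the core were not searched, so a window with 0 matches is not shown to lack the element. Of the 31 members with an entry in this promoter table, 18 (58.1%) had a match in at least 1 of their windows, against 18.5% of 27025 genes with such windows. Counted by window, 21 of 44 (47.7%) held it, against 16.6% of 32851. The list was drawn up around glycolysis and the hypoxia response, so these shares describe the list and test no cause. A match is a stretch of letters, not a measured binding site.

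Libraries had between 13024 and 17865 genes above 0, and no source used here gives their sequencing depth. Spp1 itself, the gene behind the sort, stood higher in GFP-positive than in GFP-negative cells by 3.15 to 7.10 on the log2 scale over the 6 models. The 8 microglia markers (Tmem119, P2ry12 and others) summed to between 4127 and 56650 TPM in every library, and 8, 5, 3, 7, 2 and 7 of them fell in GFP-positive against GFP-negative cells after cuprizone and in glioma, EAE, 5xFAD, P6 stroke and P28 stroke. A list of 8 monocyte-derived cell markers (Ly6c2, Ccr2 and others) stood highest in glioma, where it summed to 39.4 to 94.3 TPM in control, 1946 to 4514 in GFP-negative and 733 to 2106 in GFP-positive libraries. T and NK cell markers there summed to 0 to 1.18 TPM in control, 109 to 206.5 in GFP-negative and 37.1 to 290.3 in GFP-positive libraries. Border-associated macrophage markers summed to 22.5 to 46.5, 114.5 to 275.4 and 147.4 to 735.9 TPM in the same groups. TPM of a library share a fixed total, so rescaling each library to a common median of ratios moved the median of all genes, for GFP-positive against GFP-negative cells, by 0.25, 0.16, −0.06, 0.30, 0.11 and 0.28 on the log2 scale in that order of models; falls that this rescaling removes are named as such below. GFP-negative library 1 of EAE stood apart from GFP-negative libraries 2 and 3 of that model, with a scaling factor of 0.705 against 1.027 and 0.952. The share of TPM in mitochondrially encoded genes, a sign of RNA quality among other things, was 2.435 to 2.67% in GFP-positive against 2.203 to 2.34% in GFP-negative cells after cuprizone, and 5.09 to 5.3% against 3.84 to 4.36% after the P28 stroke; in the other 4 models the groups overlapped. Its part in the results was not tested.

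In GFP-positive against GFP-negative cells of the same model, members of the set rose in every model, from 14 called after the P28 stroke to 2 in EAE, where groups hold 3 libraries. The enzymes from aldolase to lactate dehydrogenase carried most of the calls. A member is called where limma's adjusted p (Benjamini-Hochberg over all tested genes) was below 0.05 on log2(TPM + 1), and every difference below is on that scale. After cuprizone 11 of 31 tested members rose and 1 fell, 38.7% of them, where 10.2% of all 12877 tested genes were called, 2.70% higher and 7.49% lower. The glioma contrast called 10 of 32, all higher, or 31.2%, beside 6.67% of all genes called and 0.927% called higher. In the same glioma contrast 6 of 7 tested dendritic cell markers and 2 of 3 tested neutrophil markers fell. So did 3 of 8 monocyte-derived markers, while 0 of 7 tested T and NK cell and 0 of 5 tested border-associated macrophage markers were called. The dendritic list of 8 summed to 218 to 593 TPM in GFP-negative and 11.7 to 176 in GFP-positive libraries, and the neutrophil list of 8 to 196 to 302 and 75.6 to 111 TPM. In glioma controls the neutrophil list summed to 330 to 375 TPM with 5 of its 8 genes at 0 in all, so this sum does not measure neutrophil content. The part of these cell types was not tested. EAE gave 2 of 32, both higher, or 6.25%, beside 0.688% called and 0.252% called higher. In 5xFAD 4 of 30 rose and 2 fell, 20% of them, beside 8.16% of genes, 1.02% higher and 7.14% lower. After the P6 stroke 3 of 30 rose and 2 fell, 16.7%, beside 3.36% of genes, 1.03% higher and 2.33% lower. After the P28 stroke 14 of 31 rose and 5 fell, 61.3%, beside 29.0% of genes, 5.86% higher and 23.2% lower. In bulk libraries fewer cells of a type and less RNA per cell cannot be told apart.

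The median of all genes was below 0 in 5 of these 6 contrasts and that of the members above 0 in all 6. The median member difference was 0.39, 0.40, 0.38, 0.26, 0.03 and 0.47 after cuprizone and in glioma, EAE, 5xFAD, P6 stroke and P28 stroke, where the median of all tested genes was −0.25, −0.15, 0.05, −0.29, −0.12 and −0.30. After rescaling, 12 members rose after cuprizone (4.19% of all genes called higher), 11 in glioma (2.30%), 1 in EAE (0.281%), 10 in 5xFAD (3.27%), 6 after the P6 stroke (1.74%) and 17 after the P28 stroke (9.91%). Only 1 member then fell, Hk2 after the P6 stroke, where 1.10% of all genes were lower. The EAE contrast depends on GFP-negative library 1: 6 members were called without it and 2 with it, while 0 were called without GFP-negative library 3. The P6 count was 0 without GFP-positive library 3 and 9 without GFP-positive library 1. The cuprizone count was 5 without GFP-positive library 3, and the 5xFAD count 3 without GFP-negative library 1.

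**Figure D1:**
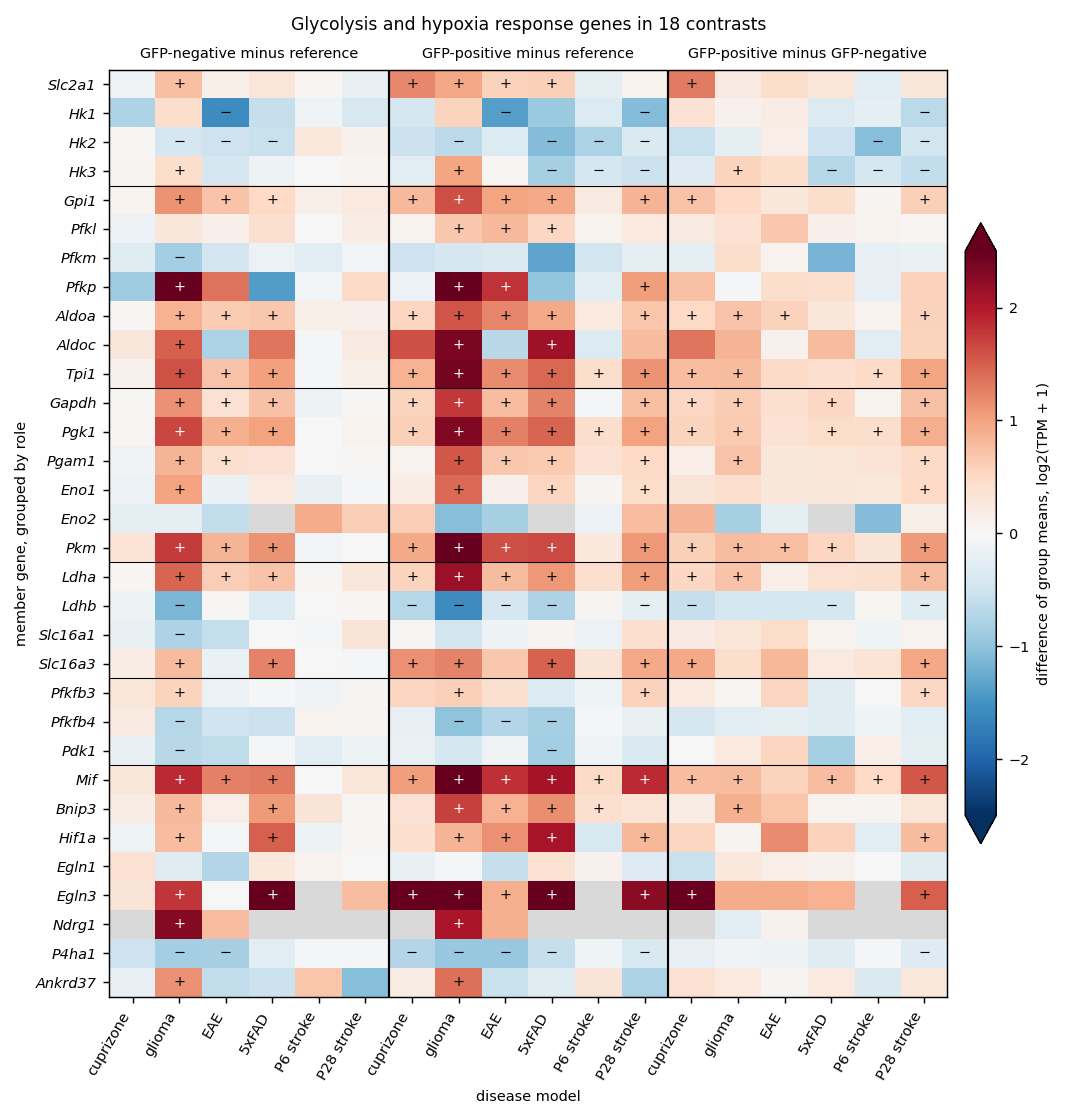
Log2 differences on log2(TPM + 1) of the 32 members (vertical axis, by role) in 18 contrasts (horizontal axis, left to right: GFP-negative against reference, GFP-positive against reference and GFP-positive against GFP-negative in 6 models). Plus and minus signs mark members called higher or lower by limma at an adjusted p below 0.05, grey cells were not tested and colours are clipped at 2.5 either way. The rows from Aldoa to Ldha are mostly red in the GFP-positive contrasts, Ldhb is blue outside the P6 stroke, and the GFP-negative contrasts of cuprizone and both strokes carry no mark.

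The heat map of member differences shows these calls by role, and the mean over all 32 members gives 1 level per library. That mean was 5.29 ± 0.17 in control, 5.25 ± 0.040 in GFP-negative and 5.65 ± 0.13 in GFP-positive libraries after cuprizone (SD, n = 4, 3 and 3, as log2(TPM + 1)). In glioma it was 5.70 ± 0.086, 6.402 ± 0.13 and 6.73 ± 0.18 (n = 4 each), and after the P28 stroke 5.29 ± 0.026, 5.375 ± 0.015 and 5.72 ± 0.087 (n = 4 each). GFP-positive libraries lay above every GFP-negative one in cuprizone, glioma, EAE and the P28 stroke. In EAE the means were 5.67 ± 0.055, 5.68 ± 0.27 and 6.03 ± 0.016 (n = 3 each). In 5xFAD they were 5.37 ± 0.090, 5.77 ± 0.17 and 5.865 ± 0.068, and after the P6 stroke 5.41 ± 0.080, 5.46 ± 0.085 and 5.45 ± 0.13 (n = 4 each). In 5xFAD and the P6 stroke the GFP-positive and GFP-negative libraries overlapped. The members together took 0.480% of all TPM in cuprizone controls and 0.622% in GFP-positive cells, and in glioma 0.534% in control, 1.04% in GFP-negative and 1.57% in GFP-positive cells, the highest share of the 18 groups.

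**Figure D2:**
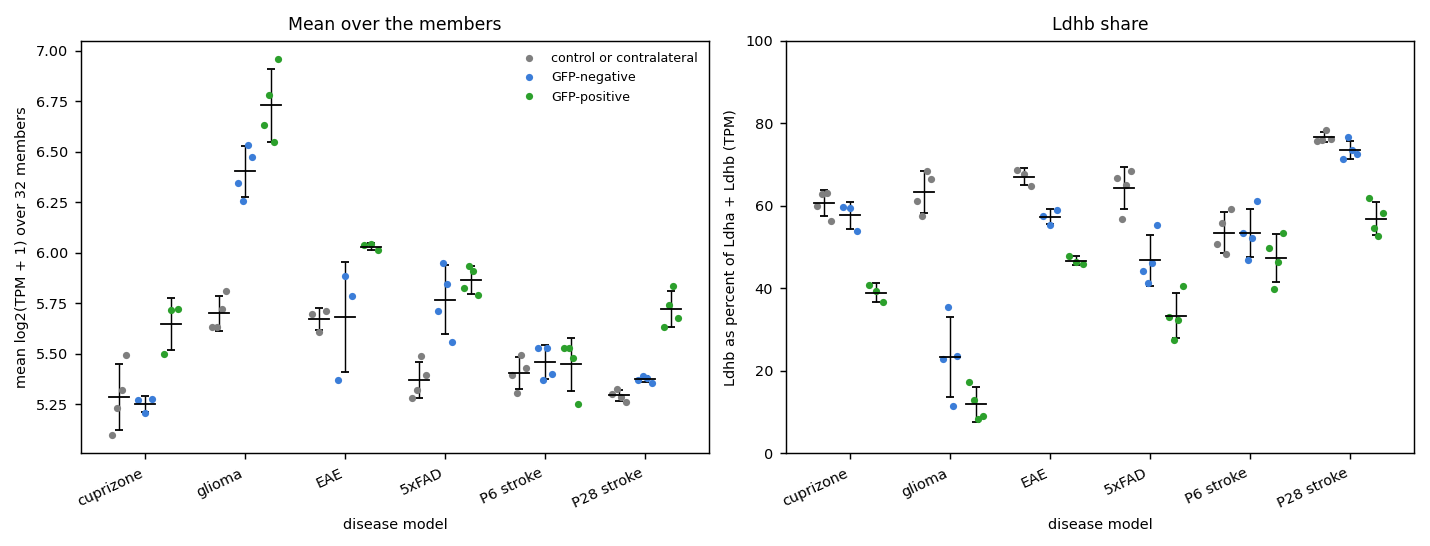
Left, the mean of log2(TPM + 1) over the 32 members in each library (points) with the group mean and SD, by model and group. Right, the share of Ldhb in the summed TPM of Ldha and Ldhb, in percent; the share drops from control through GFP-negative to GFP-positive group means in the 4 adult models and is 76.6%, 73.5% and 56.9% after the P28 stroke.

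At glucose entry, 1 of 4 members rose after cuprizone and 1 in glioma, while 1 fell in 5xFAD, 2 after the P6 stroke and 3 after the P28 stroke. Slc2a1 (chr4:119108711-119137983, plus strand, GRCm38), the glucose carrier GLUT1, was a low transcript in these cells. After cuprizone, Slc2a1 stood at 9.31, 10.6, 10.1 and 28.5 TPM in the control, 14.8, 15.4 and 7.89 in the GFP-negative and 29.3, 29.7 and 35.6 in the GFP-positive libraries. In glioma, Slc2a1 measured 24.04, 20.05, 26.4 and 42.9 TPM in the control, 73.05, 34.5, 41.4 and 43.7 in the GFP-negative and 48.8, 50.6, 41.9 and 81.1 in the GFP-positive libraries. In EAE, Slc2a1 was 26.4, 25.2 and 28.2 TPM in the control, 28.8, 31.7 and 28.1 in the GFP-negative and 39.6, 39.1 and 42.2 in the GFP-positive libraries. The cuprizone and EAE GFP-positive libraries lay above all GFP-negative ones, and 1 cuprizone control stood at the GFP-positive level. In 5xFAD, Slc2a1 was 16.8, 14.1, 22.2 and 21.2 TPM in the control, 19.4, 32.55, 20.8 and 20.1 in the GFP-negative and 26.6, 27.6, 27.8 and 30.7 in the GFP-positive libraries. Slc2a1 after the P6 stroke measured 13.15, 14.8, 15.02 and 10.2 TPM in the contralateral, 14.4, 14.6, 14.9 and 11.1 in the GFP-negative and 10.4, 10.9, 11.95 and 10.9 in the GFP-positive libraries. Slc2a1 after the P28 stroke stood at 25.7, 20.7, 31.7 and 17.2 TPM in the contralateral, 22.3, 21.7, 17.03 and 20.8 in the GFP-negative and 23.4, 29.15, 25.5 and 21.9 in the GFP-positive libraries. The groups overlapped in these models. Slc2a1 rose in GFP-positive against GFP-negative cells by 1.297 after cuprizone (SE 0.38, adjusted p = 0.0481), a call that was lost without any 1 of the 6 libraries, with adjusted p of 0.0673 to 0.161. The other differences were 0.22 in glioma, 0.44 in EAE, 0.30 in 5xFAD, −0.29 after the P6 stroke and 0.28 after the P28 stroke, and after rescaling Slc2a1 was also called in the P28 stroke (0.60).

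Hk3 (chr13:55005985-55021385, minus strand), a hexokinase found mainly in myeloid cells, moved in opposite directions in different models. After cuprizone, Hk3 stood at 47.5, 37.2, 59.3 and 59 TPM in the control, 38.2, 57.5 and 64.5 in the GFP-negative and 41.03, 42.6 and 41.2 in the GFP-positive libraries. In glioma, Hk3 measured 64.8, 75, 90.5 and 79.5 TPM in the control, 109.7, 97.02, 108 and 104 in the GFP-negative and 158, 166, 137 and 155 in the GFP-positive libraries. In EAE, Hk3 was 76.2, 74.4 and 78.9 TPM in the control, 40.01, 75.3 and 61.7 in the GFP-negative and 73.55, 80.3 and 81.04 in the GFP-positive libraries. The glioma GFP-positive libraries were the highest of that model, all above the GFP-negative ones, which were above all controls. In 5xFAD, Hk3 was 45.2, 54.3, 68.55 and 44.6 TPM in the control, 46.15, 47.55, 40.03 and 61.25 in the GFP-negative and 26.7, 27.9, 32.7 and 28.8 in the GFP-positive libraries. Hk3 after the P6 stroke measured 73.6, 83.2, 71.2 and 87.55 TPM in the contralateral, 75.6, 73.4, 72.5 and 91.1 in the GFP-negative and 61.7, 52.7, 54.6 and 61.3 in the GFP-positive libraries. Hk3 after the P28 stroke stood at 81.8, 69.96, 69.5 and 73.98 TPM in the contralateral, 92.3, 83.1, 81.8 and 56.1 in the GFP-negative and 52.9, 47.5, 42.5 and 59.65 in the GFP-positive libraries. In 5xFAD and the P6 stroke every GFP-positive library was below every GFP-negative one, and after the P28 stroke the groups overlapped. Hk3 rose by 0.55 in glioma (SE 0.11, adjusted p = 0.0129). It fell by 0.71 (SE 0.19, adjusted p = 0.02895) in 5xFAD, by 0.43 (SE 0.10, adjusted p = 0.0448) after the P6 stroke and by 0.61 (SE 0.15, adjusted p = 0.00829) after the P28 stroke, and none of these 3 falls was called after rescaling (−0.37 in 5xFAD, −0.30 after the P6 stroke and −0.28 after the P28 stroke). The call for Hk3 in 5xFAD was lost without GFP-negative library 1, 2 or 4 or GFP-positive library 1, 2 or 4, with log2 differences of −0.80 to −0.60 and adjusted p of 0.0362 to 0.101 over the 8 leave-outs. The call for Hk3 after the P6 stroke was lost without GFP-negative library 1, 2, 3 or 4 or GFP-positive library 2, 3 or 4, with log2 differences of −0.47 to −0.36 and adjusted p of 0.0241 to 0.1255 over the 8 leave-outs.

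Hk2, the inducible hexokinase bound to mitochondria, fell after both strokes. In the P6 stroke its level was 98.6, 87.7, 74.04 and 82.1 TPM in the contralateral, 112, 96.4, 109 and 91.8 in the GFP-negative and 68.9, 52.2, 48.9 and 31.3 in the GFP-positive libraries. All 4 GFP-positive values were the lowest of the model. The fall was −1.06 (SE 0.18, adjusted p = 0.0163), and −0.93 after rescaling (adjusted p = 0.0161), the only fall of a member in these 6 contrasts that stayed called. The call for Hk2 after the P6 stroke was lost without GFP-positive library 3, with log2 differences of −1.22 to −0.85 and adjusted p of 0.00109 to 0.0602 over the 8 leave-outs. In the same model the neutrophil marker list summed to 116 to 129.5 TPM in contralateral, 189 to 511 in GFP-negative and 93.6 to 153 in GFP-positive libraries. In the contralateral libraries 6 of its 8 genes were at 0 in all, so the sum does not measure neutrophil content. The part of this list in the fall was not tested. After the P28 stroke Hk2 fell by 0.47 (SE 0.13, adjusted p = 0.0144), which rescaling brought to −0.14 and below the threshold. Hk1, the common brain hexokinase, was called once, at −0.68 (SE 0.22, adjusted p = 0.0338) after the P28 stroke, and at −0.39 and not called after rescaling. The call for Hk1 after the P28 stroke was lost without GFP-negative library 2, 3 or 4 or GFP-positive library 1 or 2, with log2 differences of −0.84 to −0.56 and adjusted p of 0.00970 to 0.09515 over the 8 leave-outs.

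In upper glycolysis 3 of 7 members rose after cuprizone, 2 in glioma, 1 in EAE, 0 in 5xFAD, 1 after the P6 stroke and 3 after the P28 stroke, and none fell; the 5xFAD count had 0 calls at the adjusted threshold with differences of 0.42 for Tpi1 and 0.28 for Aldoa. Tpi1 (chr6:124810586-124814296, minus strand), triose phosphate isomerase, which feeds both products of the split sugar into the lower pathway, was among the most abundant members. After cuprizone, Tpi1 stood at 221, 236, 249.6 and 341 TPM in the control, 258, 278 and 301 in the GFP-negative and 429.7, 409 and 602 in the GFP-positive libraries. In glioma, Tpi1 measured 196, 206, 136 and 157 TPM in the control, 496, 413, 671 and 538 in the GFP-negative and 863, 947, 798 and 1043 in the GFP-positive libraries. In EAE, Tpi1 was 150.4, 156 and 191 TPM in the control, 289, 252.5 and 269 in the GFP-negative and 388, 368 and 376 in the GFP-positive libraries. GFP-positive libraries were above all GFP-negative ones in each of these models. In 5xFAD, Tpi1 was 300.5, 235, 269 and 237 TPM in the control, 541, 617, 552 and 416 in the GFP-negative and 651, 855, 697 and 638 in the GFP-positive libraries. Tpi1 after the P6 stroke measured 269, 250.3, 284 and 224 TPM in the contralateral, 258, 267, 247 and 222 in the GFP-negative and 319, 380.1, 371 and 321 in the GFP-positive libraries. Tpi1 after the P28 stroke stood at 106, 107, 108 and 117 TPM in the contralateral, 122, 113, 117 and 129.7 in the GFP-negative and 240, 264, 294 and 182 in the GFP-positive libraries. The same held here, so that the groups did not overlap in any of the 6 models. Tpi1 rose by 0.76 after cuprizone (SE 0.17, adjusted p = 0.0123) and 0.80 in glioma (SE 0.16, adjusted p = 0.0132), and by 0.48 after the P6 stroke (SE 0.093, adjusted p = 0.0212) and 0.99 after the P28 stroke (SE 0.12, adjusted p = 9.88e-05). The differences of 0.48 in EAE (SE 0.12, adjusted p = 0.123) and 0.42 in 5xFAD (SE 0.13, adjusted p = 0.0629) were not called, the latter being called after rescaling (0.77). The call for Tpi1 after cuprizone was lost without GFP-negative library 1 or GFP-positive library 3, with log2 differences of 0.59 to 0.87 and adjusted p of 0.0160 to 0.0553 over the 6 leave-outs. The call for Tpi1 after the P6 stroke was lost without GFP-positive library 2 or 3, with log2 differences of 0.43 to 0.52 and adjusted p of 0.00777 to 0.0820 over the 8 leave-outs.

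Aldoa, the main aldolase, which splits the sugar, covers 2 Ensembl genes under 1 symbol (chr7:126795234-126800751, minus strand, and an adjoining locus). After cuprizone, Aldoa stood at 765, 593, 770.4 and 918 TPM in the control, 697, 811 and 814 in the GFP-negative and 1005, 1035 and 1257 in the GFP-positive libraries. In glioma, Aldoa measured 573, 533, 517 and 563 TPM in the control, 959, 833, 1238 and 1017 in the GFP-negative and 1542, 1724, 1513 and 1762 in the GFP-positive libraries. In EAE, Aldoa was 469, 418 and 512 TPM in the control, 728, 712 and 743 in the GFP-negative and 1069.6, 1105 and 1074 in the GFP-positive libraries. In these 3 models GFP-positive libraries were all above GFP-negative ones. In 5xFAD, Aldoa was 805, 692, 718 and 814 TPM in the control, 1191, 1462, 1221 and 996 in the GFP-negative and 1469.9, 1702, 1438 and 1277 in the GFP-positive libraries. Aldoa after the P6 stroke measured 442, 417, 480.5 and 404 TPM in the contralateral, 521, 488, 490.1 and 433 in the GFP-negative and 577, 537, 491 and 454 in the GFP-positive libraries. Aldoa after the P28 stroke stood at 363, 338, 287 and 355 TPM in the contralateral, 414, 369, 342 and 331 in the GFP-negative and 566, 547, 569 and 482 in the GFP-positive libraries. Only the P28 stroke kept the groups apart here. Aldoa rose by 0.50 after cuprizone (SE 0.14, adjusted p = 0.0357) and 0.70 in glioma (SE 0.11, adjusted p = 0.00485), and by 0.57 in EAE (SE 0.093, adjusted p = 0.0279) and 0.57 after the P28 stroke (SE 0.10, adjusted p = 0.000757). In EAE the rescaled difference of 0.50 was not called. The call for Aldoa after cuprizone was lost without GFP-negative library 1, 2 or 3 or GFP-positive library 2 or 3, with log2 differences of 0.40 to 0.56 and adjusted p of 0.0463 to 0.140 over the 6 leave-outs. The call for Aldoa in EAE was lost without GFP-negative library 2 or 3 or GFP-positive library 1, 2 or 3, with log2 differences of 0.56 to 0.59 and adjusted p of 0.0168 to 0.149 over the 6 leave-outs. The difference was 0.28 in 5xFAD and 0.089 after the P6 stroke, neither called.

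Gpi1, which turns glucose-6-phosphate into fructose-6-phosphate, rose by 0.72 after cuprizone (SE 0.19, adjusted p = 0.0316) and 0.60 after the P28 stroke (SE 0.10, adjusted p = 0.000618). The call for Gpi1 after cuprizone was lost without GFP-negative library 2 or 3 or GFP-positive library 2 or 3, with log2 differences of 0.60 to 0.81 and adjusted p of 0.0411 to 0.130 over the 6 leave-outs. The 3 phosphofructokinase genes Pfkl, Pfkm and Pfkp, which encode the pace-setting enzyme, and the brain aldolase Aldoc were not called between GFP-positive and GFP-negative cells in any model. Pfkp, the platelet form, was high in both sorted populations of glioma: 10.1, 6.07, 11.8 and 6.62 TPM in control, 89.2, 85.6, 175 and 109.7 in GFP-negative and 84.4, 113, 115 and 121 in GFP-positive libraries. Both sorted groups were above all controls and overlapped each other, with a difference of −0.037 between them.

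In lower glycolysis 3 of 6 members rose after cuprizone, 4 in glioma, 1 in EAE, 3 of 5 tested in 5xFAD, 1 after the P6 stroke and 5 after the P28 stroke, and none fell. Gapdh (chr6:125161715-125166467, minus strand), which makes the first high-energy intermediate and is widely used as a reference gene, was one of them. After cuprizone, Gapdh stood at 661, 654, 628 and 659 TPM in the control, 624, 664 and 709 in the GFP-negative and 882, 901 and 1100.2 in the GFP-positive libraries. In glioma, Gapdh measured 1698, 1753, 1334 and 1423 TPM in the control, 3883, 2810.4, 3779 and 3169 in the GFP-negative and 5200.4, 5296, 4749 and 5775 in the GFP-positive libraries. In EAE, Gapdh was 1566, 1451 and 1772 TPM in the control, 1945, 2209.6 and 2048 in the GFP-negative and 2583, 2891 and 2737 in the GFP-positive libraries. GFP-positive libraries lay above all GFP-negative ones in each. In 5xFAD, Gapdh was 1363, 1033, 1034 and 1209 TPM in the control, 1900.2, 1897, 1923 and 1916 in the GFP-negative and 2699, 2732, 2543 and 2943 in the GFP-positive libraries. Gapdh after the P6 stroke measured 2263, 2165, 2448 and 2020.1 TPM in the contralateral, 1939.6, 2211, 2185 and 1817 in the GFP-negative and 2439.6, 2488.5, 2158 and 1682 in the GFP-positive libraries. Gapdh after the P28 stroke stood at 1368, 1431, 1320.1 and 1456 TPM in the contralateral, 1564.5, 1318, 1395 and 1386 in the GFP-negative and 2158, 2426, 2881 and 2020.1 in the GFP-positive libraries. The groups were apart in 5xFAD and the P28 stroke and overlapped in the P6 stroke. Gapdh rose by 0.52 after cuprizone (SE 0.093, adjusted p = 0.003165) and 0.63 in glioma (SE 0.13, adjusted p = 0.0135), and by 0.51 in 5xFAD (SE 0.088, adjusted p = 0.00179) and 0.73 after the P28 stroke (SE 0.10, adjusted p = 0.0001735). The EAE difference of 0.41 (SE 0.094, adjusted p = 0.108) and the P6 difference of 0.093 (SE 0.11, adjusted p = 0.662) were not called.

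Pgk1 (chrX:106187100-106203699, plus strand), phosphoglycerate kinase, an ATP-yielding step and a classical HIF-1 target whose promoter is printed above, had the groups apart in all 6 models. After cuprizone, Pgk1 stood at 87.99, 92.7, 92.7 and 116 TPM in the control, 86.8, 111 and 104 in the GFP-negative and 134, 145 and 162 in the GFP-positive libraries. In glioma, Pgk1 measured 86.1, 103, 75.4 and 79.96 TPM in the control, 337, 192, 307 and 280.1 in the GFP-negative and 353, 449.9, 399 and 543 in the GFP-positive libraries. In EAE, Pgk1 was 68.9, 76.5 and 75.2 TPM in the control, 135, 138 and 139 in the GFP-negative and 180, 173 and 176 in the GFP-positive libraries. Control and GFP-negative libraries overlapped after cuprizone, whereas in glioma and EAE the GFP-negative libraries were already above all controls. In 5xFAD, Pgk1 was 87.7, 73.1, 71.7 and 73.9 TPM in the control, 164, 167, 149.5 and 140.3 in the GFP-negative and 223, 258, 183 and 193 in the GFP-positive libraries. Pgk1 after the P6 stroke measured 129, 122, 137 and 132 TPM in the contralateral, 136, 141, 137 and 109.7 in the GFP-negative and 161, 187, 181 and 181 in the GFP-positive libraries. Pgk1 after the P28 stroke stood at 65.3, 65.9, 68.5 and 66.35 TPM in the contralateral, 77.45, 66.6, 67.1 and 71.4 in the GFP-negative and 128, 136, 165 and 112 in the GFP-positive libraries. GFP-negative and contralateral libraries overlapped in both strokes. Pgk1 rose by 0.55 after cuprizone (SE 0.15, adjusted p = 0.03225), 0.65 in glioma (SE 0.18, adjusted p = 0.0447) and 0.45 in 5xFAD (SE 0.13, adjusted p = 0.0465), and by 0.44 after the P6 stroke (SE 0.090, adjusted p = 0.0257) and 0.92 after the P28 stroke (SE 0.11, adjusted p = 8.64e-05). Of these 5 calls the P28 one held in every leave-out. The call for Pgk1 after cuprizone was lost without GFP-negative library 1 or 3 or GFP-positive library 2 or 3, with log2 differences of 0.45 to 0.62 and adjusted p of 0.0425 to 0.118 over the 6 leave-outs. The call for Pgk1 in glioma was lost without GFP-negative library 2 or 4 or GFP-positive library 2, 3 or 4, with log2 differences of 0.49 to 0.76 and adjusted p of 0.0317 to 0.126 over the 8 leave-outs. The call for Pgk1 in 5xFAD was lost without GFP-negative library 1, 2, 3 or 4 or GFP-positive library 1, 2 or 4, with log2 differences of 0.36 to 0.52 and adjusted p of 0.0386 to 0.142 over the 8 leave-outs. The call for Pgk1 after the P6 stroke was lost without GFP-negative library 1 or GFP-positive library 2, 3 or 4, with log2 differences of 0.36 to 0.49 and adjusted p of 0.00803 to 0.0869 over the 8 leave-outs. The EAE difference was 0.36 (SE 0.11, adjusted p = 0.238).

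Pkm (chr9:59656368-59679375, plus strand), pyruvate kinase, the last ATP-yielding step, was called in 5 models. After cuprizone, Pkm stood at 247, 236.5, 277 and 303 TPM in the control, 327, 302 and 385 in the GFP-negative and 493.5, 487 and 558 in the GFP-positive libraries. In glioma, Pkm measured 297, 323, 213 and 244 TPM in the control, 949, 701, 1034 and 931 in the GFP-negative and 1557, 1606, 1362 and 1577 in the GFP-positive libraries. In EAE, Pkm was 237, 245 and 248 TPM in the control, 352, 509 and 480 in the GFP-negative and 711, 787 and 749 in the GFP-positive libraries. In all 3 the GFP-positive libraries were above the GFP-negative ones, and in glioma they reached the highest Pkm levels of the series. In 5xFAD, Pkm was 269, 243, 232 and 297 TPM in the control, 510.1, 644, 573 and 541 in the GFP-negative and 843, 913, 723 and 805 in the GFP-positive libraries. Pkm after the P6 stroke measured 513, 473, 538 and 460.2 TPM in the contralateral, 499, 504, 478 and 417 in the GFP-negative and 577, 675, 640 and 499 in the GFP-positive libraries. Pkm after the P28 stroke stood at 216, 218, 168 and 230.3 TPM in the contralateral, 214, 191, 220 and 212 in the GFP-negative and 391, 489.7, 541 and 364 in the GFP-positive libraries. The P6 groups overlapped. Pkm rose by 0.60 after cuprizone (SE 0.12, adjusted p = 0.00704), 0.77 in glioma (SE 0.15, adjusted p = 0.00972) and 0.76 in EAE (SE 0.13, adjusted p = 0.0357), and by 0.53 in 5xFAD (SE 0.11, adjusted p = 0.00590) and 1.07 after the P28 stroke (SE 0.13, adjusted p = 9.06e-05). The P6 difference of 0.33 (SE 0.10, adjusted p = 0.0765) was called only after rescaling (0.46). The call for Pkm in EAE was lost without GFP-negative library 3 or GFP-positive library 1, 2 or 3, with log2 differences of 0.60 to 0.86 and adjusted p of 0.00849 to 0.176 over the 6 leave-outs. Gene-level TPM do not separate the PKM1 and PKM2 splice forms. Pgam1, phosphoglycerate mutase, rose by 0.71 in glioma (SE 0.12, adjusted p = 0.00649) and 0.47 after the P28 stroke (SE 0.14, adjusted p = 0.0201), and Eno1, the ubiquitous enolase, by 0.50 after the P28 stroke (SE 0.078, adjusted p = 0.000499). The call for Pgam1 after the P28 stroke was lost without GFP-negative library 2 or 4 or GFP-positive library 3, with log2 differences of 0.35 to 0.56 and adjusted p of 0.01345 to 0.0590 over the 8 leave-outs. Eno2, the neuronal enolase, was not called in any of the 5 models where it was tested.

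**Figure D3:**
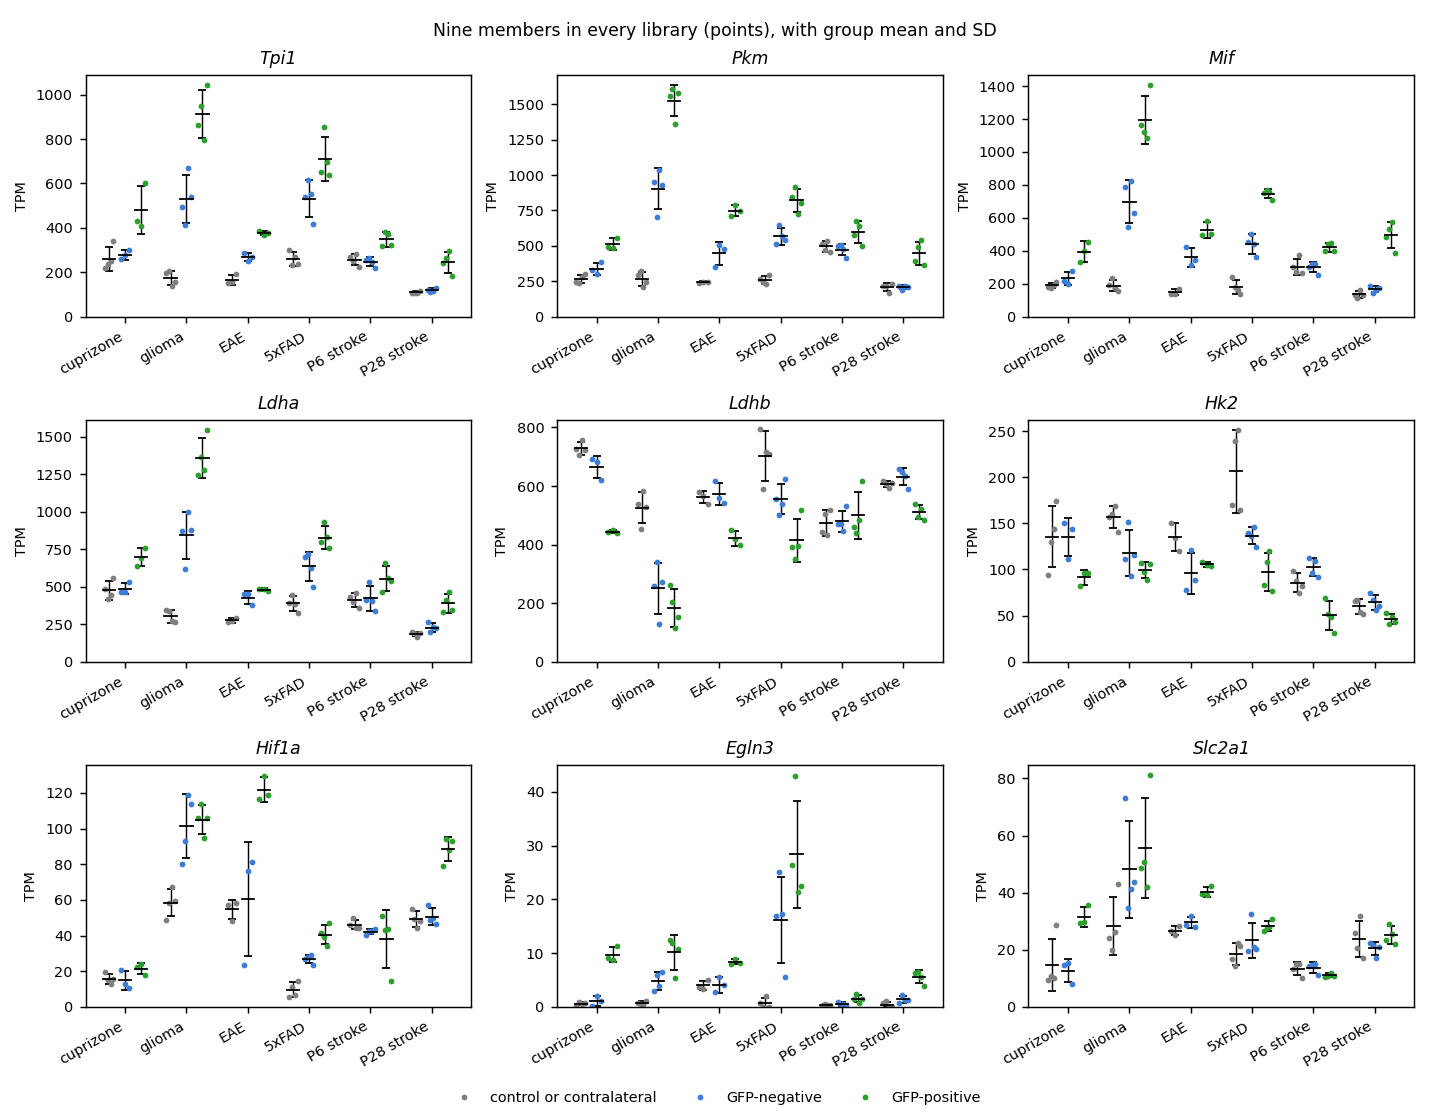
TPM (linear axis from 0) of 9 members in each library (points), with group means and SD, by model and group. Tpi1, Pkm and Mif lie higher in GFP-positive than in GFP-negative libraries of most models, and Ldhb lies lower. Among the P6 stroke libraries Hk2 is lowest in the GFP-positive ones, and Egln3 is near 0 in the cuprizone and P28 reference libraries.

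Among lactate genes the muscle-type and heart-type subunits of lactate dehydrogenase went opposite ways. Ldha (chr7:46841475-46855627, plus strand), whose subunit favours making lactate, has 5 matches in the promoter window printed above. After cuprizone, Ldha stood at 485, 415, 444 and 559 TPM in the control, 466, 465 and 529.8 in the GFP-negative and 640, 689 and 761 in the GFP-positive libraries. In glioma, Ldha measured 343, 337, 269 and 265 TPM in the control, 869.6, 621, 996 and 881 in the GFP-negative and 1246, 1364, 1277 and 1545 in the GFP-positive libraries. In EAE, Ldha was 264, 271 and 293 TPM in the control, 453, 449 and 378 in the GFP-negative and 488, 482 and 469 in the GFP-positive libraries. The GFP-positive libraries were above the GFP-negative ones in all 3. In 5xFAD, Ldha was 394, 447, 386 and 327 TPM in the control, 699, 715, 628 and 501 in the GFP-negative and 795, 929, 829 and 757 in the GFP-positive libraries. Ldha after the P6 stroke measured 430.5, 400.4, 461 and 355 TPM in the contralateral, 411, 533, 407 and 337 in the GFP-negative and 464, 661, 557 and 537 in the GFP-positive libraries. Ldha after the P28 stroke stood at 198, 192, 164 and 191 TPM in the contralateral, 264, 197, 229 and 222 in the GFP-negative and 332, 409.9, 466 and 348 in the GFP-positive libraries. They were above in 5xFAD and the P28 stroke and overlapped in the P6 stroke. Ldha rose by 0.52 after cuprizone (SE 0.11, adjusted p = 0.0123), 0.71 in glioma (SE 0.15, adjusted p = 0.0142) and 0.76 after the P28 stroke (SE 0.12, adjusted p = 0.0004335). The call for Ldha after cuprizone was lost without GFP-negative library 2 or GFP-positive library 3, with log2 differences of 0.45 to 0.58 and adjusted p of 0.0171 to 0.0547 over the 6 leave-outs. In EAE, 5xFAD and the P6 stroke the differences were 0.17, 0.39 and 0.40, none called, and the 5xFAD one was called after rescaling.

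Ldhb (chr6:142490249-142507957, minus strand), whose subunit favours turning lactate back to pyruvate, was the only member called lower in 3 of the 6 contrasts without being called higher in any. After cuprizone, Ldhb stood at 726, 707, 758 and 723 TPM in the control, 693, 682 and 622 in the GFP-negative and 443, 449 and 439 in the GFP-positive libraries. In glioma, Ldhb measured 539, 454, 584 and 528 TPM in the control, 258, 341, 130.4 and 274 in the GFP-negative and 261, 205, 115 and 153 in the GFP-positive libraries. In EAE, Ldhb was 579, 566 and 539 TPM in the control, 616, 558 and 543 in the GFP-negative and 449, 418 and 398 in the GFP-positive libraries. After cuprizone and in EAE every GFP-positive library was below every GFP-negative one, and in glioma both sorted groups were below all controls. In 5xFAD, Ldhb was 793, 589, 717 and 710.4 TPM in the control, 556, 502, 537 and 623 in the GFP-negative and 392, 352, 395 and 519 in the GFP-positive libraries. Ldhb after the P6 stroke measured 442, 505, 431 and 518 TPM in the contralateral, 469, 471, 447 and 531 in the GFP-negative and 459, 439, 483 and 617 in the GFP-positive libraries. Ldhb after the P28 stroke stood at 618, 606, 595 and 612 TPM in the contralateral, 657, 646, 635 and 591 in the GFP-negative and 538, 496, 522 and 486 in the GFP-positive libraries. The P28 groups were apart and the 5xFAD and P6 groups overlapped. Ldhb fell by 0.58 (SE 0.077, adjusted p = 0.000407) after cuprizone, by 0.43 (SE 0.12, adjusted p = 0.0441) in 5xFAD and by 0.31 (SE 0.062, adjusted p = 0.00249) after the P28 stroke, and after rescaling these differences were −0.29, −0.080 and 0.026, none called and the last of the other sign. The call for Ldhb in 5xFAD was lost without GFP-negative library 1, 2, 3 or 4 or GFP-positive library 1, 2 or 3, with log2 differences of −0.54 to −0.36 and adjusted p of 0.0109 to 0.1295 over the 8 leave-outs.

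The ratio of the pair does not depend on the scaling of a library; it was chosen after the values were seen and is given as a description. Ldhb made up 60.6 ± 3.145% of the summed TPM of Ldha and Ldhb in cuprizone controls (SD, n = 4), 57.75 ± 3.25% in GFP-negative (n = 3) and 38.99 ± 2.202% in GFP-positive libraries (n = 3). In glioma the share was 63.4 ± 5.05%, 23.4 ± 9.75% and 11.9 ± 4.185% (n = 4 each), the lowest of the series. In EAE it was 67.02 ± 2.03%, 57.3 ± 1.79% and 46.7 ± 1.08% (n = 3 each). The GFP-positive and GFP-negative libraries did not overlap after cuprizone and in EAE, and did in glioma. In 5xFAD the share was 64.3 ± 5.14%, 46.8 ± 6.104% and 33.4 ± 5.46% (n = 4 each). After the P6 stroke it was 53.5 ± 4.96%, 53.4 ± 5.86% and 47.4 ± 5.74%, and after the P28 stroke 76.6 ± 1.23%, 73.5 ± 2.26% and 56.9 ± 3.996% (n = 4 each). The 5xFAD and P28 groups were apart and the P6 groups overlapped, as the plot of module means and Ldhb shares shows.

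Slc16a3, the lactate exporter MCT4, rose together with Ldha after cuprizone and the P28 stroke. Its level after cuprizone was 47.6, 63.2, 46.6 and 97.4 TPM in control, 77.7, 63.95 and 67.3 in GFP-negative and 135, 140.3 and 129.7 in GFP-positive libraries. After the P28 stroke it was 46.1, 36.2, 33.45 and 50.2 TPM in contralateral, 42.85, 41.8, 36.8 and 39.4 in GFP-negative and 68.15, 78.9, 102 and 72.6 in GFP-positive libraries. GFP-positive libraries were above all others in both models. The rises over GFP-negative cells were 0.95 after cuprizone (SE 0.23, adjusted p = 0.0196) and 0.97 after the P28 stroke (SE 0.15, adjusted p = 0.000436). The call for Slc16a3 after cuprizone was lost without GFP-negative library 2 or 3 or GFP-positive library 1, 2 or 3, with log2 differences of 0.89 to 1.03 and adjusted p of 0.0384 to 0.0670 over the 6 leave-outs. Slc16a1, the carrier MCT1, was not called in any of the 6 contrasts. Of the flux regulators, Pfkfb3, which makes the activator of phosphofructokinase, rose by 0.51 after the P28 stroke (SE 0.091, adjusted p = 0.00113); its relative Pfkfb4 and the pyruvate dehydrogenase kinase Pdk1 were not called in any of the 6.

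In the hypoxia group 2 of 7 tested members rose after cuprizone, 2 of 8 in glioma, 0 of 8 in EAE, 1 of 7 in 5xFAD, 1 of 6 after the P6 stroke and 3 of 7 after the P28 stroke, where 1 fell. Mif (chr10:75859353-75860240, minus strand), macrophage migration inhibitory factor, a cytokine with tautomerase activity that HIF-1 can induce, was called in 5 models. After cuprizone, Mif stood at 182, 175, 190.3 and 213 TPM in the control, 215, 201 and 280.2 in the GFP-negative and 329, 401 and 453 in the GFP-positive libraries. In glioma, Mif measured 191, 233, 176 and 158 TPM in the control, 787, 546, 826 and 632 in the GFP-negative and 1162, 1121, 1082 and 1405 in the GFP-positive libraries. In EAE, Mif was 139, 137 and 169.7 TPM in the control, 426, 313 and 343 in the GFP-negative and 496, 579.6 and 500.2 in the GFP-positive libraries. The groups stepped up without overlap from control through GFP-negative to GFP-positive in glioma and EAE. In 5xFAD, Mif was 242, 179, 163 and 138 TPM in the control, 456, 502, 444 and 360.3 in the GFP-negative and 752, 770.4, 755 and 707 in the GFP-positive libraries. Mif after the P6 stroke measured 300.4, 274, 372 and 265 TPM in the contralateral, 300.5, 322, 318 and 256 in the GFP-negative and 398, 442, 446 and 400.2 in the GFP-positive libraries. Mif after the P28 stroke stood at 133, 113, 165 and 131 TPM in the contralateral, 187, 146, 159 and 177 in the GFP-negative and 486, 530.3, 572 and 388 in the GFP-positive libraries. All GFP-positive libraries were above all GFP-negative ones in these 3 as well. Mif rose by 0.77 after cuprizone (SE 0.15, adjusted p = 0.00530), 0.785 in glioma (SE 0.15, adjusted p = 0.0105) and 0.77 in 5xFAD (SE 0.15, adjusted p = 0.00389), and by 0.50 after the P6 stroke (SE 0.11, adjusted p = 0.03005) and 1.55 after the P28 stroke (SE 0.13, adjusted p = 1.34e-05). The EAE difference was 0.55 (SE 0.14, adjusted p = 0.152). The call for Mif after the P6 stroke was lost without GFP-negative library 1, 2, 3 or 4 or GFP-positive library 2, 3 or 4, with log2 differences of 0.42 to 0.54 and adjusted p of 0.0172 to 0.102 over the 8 leave-outs. Reads that a Mif pseudogene drew made up at most 6.99% of the summed TPM of Mif and its named copies.

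Hif1a (chr12:73901375-73947530, plus strand) itself was called in 1 of the 6 contrasts. After cuprizone, Hif1a stood at 19.4, 14.8, 12.5 and 15.8 TPM in the control, 20.7, 12.85 and 10.7 in the GFP-negative and 22.2, 23.8 and 17.8 in the GFP-positive libraries. In glioma, Hif1a measured 48.8, 58.1, 67.01 and 59.5 TPM in the control, 80.4, 92.9, 119 and 114 in the GFP-negative and 106, 114, 94.6 and 106 in the GFP-positive libraries. In EAE, Hif1a was 57.4, 48.3 and 58.2 TPM in the control, 23.4, 76.35 and 81.1 in the GFP-negative and 117, 129.7 and 119 in the GFP-positive libraries. In EAE the GFP-negative libraries ranged from the lowest value of the model, in the library that stood apart, to above the controls. In 5xFAD, Hif1a was 5.45, 11.05, 6.84 and 14.6 TPM in the control, 27.01, 27.8, 29.03 and 23.4 in the GFP-negative and 41.3, 39.3, 34.1 and 47.1 in the GFP-positive libraries. Hif1a after the P6 stroke measured 45.9, 50.1, 44.3 and 44.4 TPM in the contralateral, 40.3, 42.7, 42.4 and 43.4 in the GFP-negative and 50.9, 42.85, 43.9 and 14.5 in the GFP-positive libraries. Hif1a after the P28 stroke stood at 54.9, 49.5, 44.3 and 48.2 TPM in the contralateral, 57.3, 48.6, 49.95 and 46.6 in the GFP-negative and 78.98, 94.3, 87.8 and 93.04 in the GFP-positive libraries. GFP-positive libraries were above GFP-negative ones in EAE, 5xFAD and the P28 stroke and overlapped them elsewhere. Hif1a rose by 0.80 after the P28 stroke (SE 0.10, adjusted p = 0.000136). The EAE and 5xFAD differences were 1.19 in EAE (SE 0.38, adjusted p = 0.256) and 0.57 in 5xFAD (SE 0.26, adjusted p = 0.211), and in the other contrasts they were 0.54 after cuprizone, 0.064 in glioma and −0.29 after the P6 stroke, none called. HIF-1 alpha is controlled largely at the protein level, which was not measured.

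Egln3, a prolyl hydroxylase that is itself a HIF target, was near 0 TPM in the cuprizone and P28 reference libraries. After cuprizone it was 0.21, 0.81, 0.55 and 0.65 TPM in control, 0.17, 1.96 and 1.03 in GFP-negative and 9.09, 8.72 and 11.3 in GFP-positive libraries. After the P28 stroke it was 0.68, 1.01, 0 and 0 TPM in contralateral, 0.67, 2.26, 1.34 and 1.26 in GFP-negative and 6.35, 6.53, 5.58 and 3.94 in GFP-positive libraries. In 5xFAD it was 0.63, 0, 2.07 and 0 TPM in control, 16.8, 25.01, 17.3 and 5.57 in GFP-negative and 26.45, 42.9, 21.4 and 22.55 in GFP-positive libraries. GFP-positive libraries were above all others in the first pair, while in 5xFAD both sorted groups were above all controls and overlapped each other. Egln3 rose by 2.47 after cuprizone (SE 0.43, adjusted p = 0.00278) and 1.49 after the P28 stroke (SE 0.31, adjusted p = 0.00322); the 5xFAD difference was 0.88 (SE 0.46, adjusted p = 0.273). A pseudocount of 1 understates differences at such low levels. After cuprizone Egln3 passed the filter only through its GFP-positive libraries, so that call is given as a description. It was not tested after the P6 stroke, where 3 libraries, all GFP-positive, reached 1 TPM and the filter asks for 4; its levels there were 0.2, 0.45, 0.38 and 0.24 TPM in contralateral, 0.95, 0.21, 0.49 and 0.42 in GFP-negative and 1.39, 2.33, 0.71 and 1.46 in GFP-positive libraries.

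Bnip3, a mitophagy receptor and HIF target, rose by 0.89 in glioma (SE 0.20, adjusted p = 0.01965), from a mean of 70.6 TPM in GFP-negative to 132 TPM in GFP-positive libraries (n = 4 each). The call for Bnip3 in glioma was lost without GFP-negative library 2 or GFP-positive library 4, with log2 differences of 0.71 to 1.03 and adjusted p of 0.0160 to 0.0547 over the 8 leave-outs. P4ha1, a collagen prolyl hydroxylase, was called lower after the P28 stroke at −0.33 (SE 0.10, adjusted p = 0.02165), and the rescaled difference was not called and slightly above 0. The call for P4ha1 after the P28 stroke was lost without GFP-negative library 1 or 4 or GFP-positive library 2, with log2 differences of −0.38 to −0.26 and adjusted p of 0.0191 to 0.06145 over the 8 leave-outs. Egln1, the main oxygen-sensing hydroxylase, Ankrd37 and Ndrg1 were not called in any of the 6 contrasts, and Ndrg1 was tested in only 2.

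Whether the GFP-positive difference itself varied between the 6 models was tested in 1 fit over all 67 libraries. At an adjusted p below 0.05, 10 of 29 members tested in every model varied, 34.5% of them, beside 19.6% of all 11301 genes. On simulated data this test with table-level weights called unchanged genes too often, 23.3% of its calls, so members are named only where a version using each table's own spread, at 7.19% in the simulation, also called them. Those were 6 of 29 (9.4% of all genes): Hk2 (adjusted p = 0.0443), Hk3 (0.000547), Gpi1 (0.0486), Aldoa (0.042), Mif (0.00793) and Hif1a (0.0372). These p-values came from an F test on the limma differences of the 6 tables, weighted by their SE, with Benjamini-Hochberg adjustment. Tpi1, Pgk1, Ldha and Ldhb were called in neither version, which does not show that they respond alike.

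The pair of stroke models differ in age at injury, in the interval to collection and in sex, and their GFP-positive differences were compared directly. By Xist against Ddx3y, 2 of 4 libraries of each P6 group and 0 of 4 of each P28 group read as female. Of 30 members 9 differed, 30% of them, beside 9.94% of 12413 genes, and all 9 had the larger rise after the P28 stroke. The P28 minus P6 difference was 1.05 for Mif (SE 0.18, limma adjusted p = 0.000446), 1.08 for Hif1a (SE 0.32, adjusted p = 0.035), 0.75 for Pkm (SE 0.17, adjusted p = 0.00564) and 0.64 for Gapdh (SE 0.16, adjusted p = 0.0113). For Gpi1, Aldoa, Tpi1, Pgk1 and Pfkfb3 it was between 0.47 and 0.53. Hk2 and Hk3, which fell in both, were not among the 9. Beside this, monocyte-derived markers summed to 13.5 to 61.9 and 11.1 to 58.6 TPM in P6 GFP-negative and GFP-positive libraries, and to 10.3 to 39 and 57.7 to 183 TPM in the P28 ones; their part was not tested. Age at injury, interval and sex cannot be told apart between the models.

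**Figure D4:**
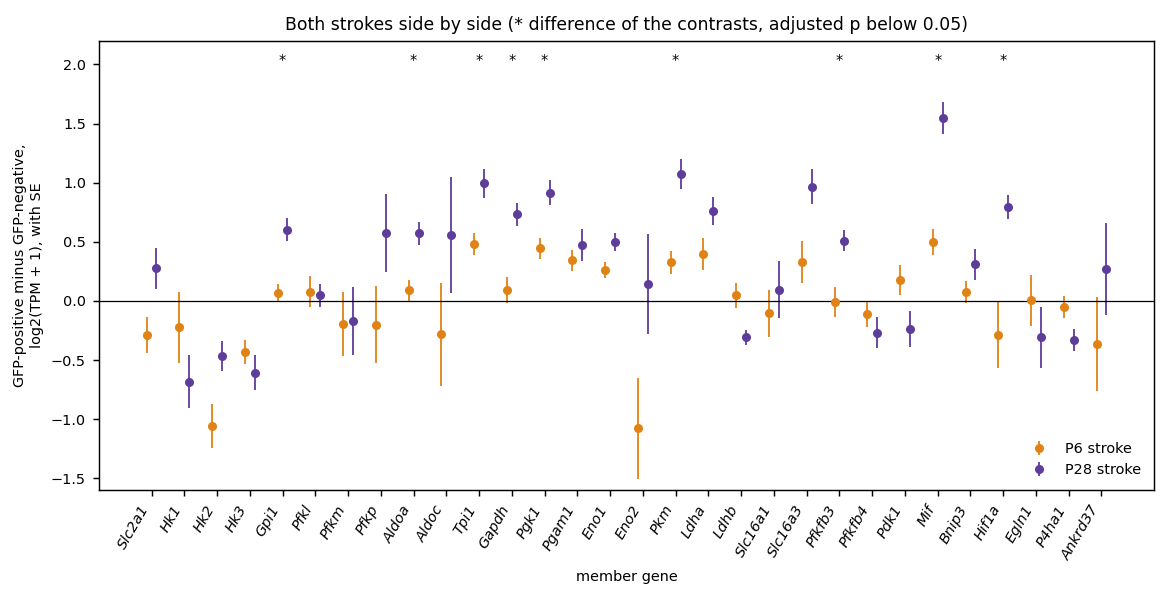
GFP-positive minus GFP-negative log2 difference with its SE for 30 members after the P6 stroke and after the P28 stroke. Asterisks mark the 9 members whose pair of differences itself differed at an adjusted p below 0.05; for each of them the P28 point is the higher of the pair.

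GFP-negative cells were next set against the reference, and the models split. After cuprizone, the P6 stroke and the P28 stroke limma called 0 members at the adjusted threshold, beside 0.163%, 0.274% and 0.238% of all genes. An unadjusted limma p below 0.05 was reached by 3 of 31, 3 of 30 and 5 of 31 members. Among all genes 1020 of 12877, 1051 of 13136 and 1216 of 14303 reached it. In glioma 21 of 32 rose and 7 fell, beside 52.8% of all genes called, 16.0% higher and 36.8% lower. In EAE 9 of 32 rose and 3 fell, beside 30.3%, 5.88% higher and 24.5% lower. In 5xFAD 12 of 30 rose and 1 fell, beside 12.7%, 3.57% higher and 9.12% lower. These contrasts use the same GFP-negative libraries as those above, with the sign of that group turned, so they are not independent of them. After rescaling 23 rose and 2 fell in glioma (22.4% and 15.4% of all genes), while 11 rose in EAE (9.21%) and 15 in 5xFAD (5.64%) and none fell in either.

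In glioma the 6 members with the smallest adjusted p were Pfkp at 3.57 (SE 0.24, adjusted p = 1.93e-07), Mif at 1.87 (SE 0.15, adjusted p = 1.15e-06), Pkm at 1.75 (SE 0.15, adjusted p = 1.50e-06), Ldha at 1.46 (SE 0.15, adjusted p = 6.65e-06), Tpi1 at 1.598 (SE 0.16, adjusted p = 7.44e-06) and Pgk1 at 1.665 (SE 0.18, adjusted p = 1.11e-05). For all 6 every GFP-negative library was above every control. The 7 that fell were Ldhb (−1.145), P4ha1 (−0.85), Pfkm (−0.85), Slc16a1 (−0.78), Pfkfb4 (−0.72), Pdk1 (−0.69) and Hk2 (−0.43), and only Ldhb and P4ha1 were still called lower after rescaling (−0.72 and −0.43). Microglia markers summed to 39910 to 45200 TPM in these controls and 7069 to 18400 TPM in GFP-negative cells, and all 8 monocyte-derived markers rose; their part in the glioma differences was not tested.

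In EAE the leading rises were Mif at 1.27 (SE 0.14, adjusted p = 0.0001755), Pgk1 at 0.89 (SE 0.11, adjusted p = 0.000330), Aldoa at 0.64 (SE 0.093, adjusted p = 0.000943), Gpi1 at 0.71 (SE 0.11, adjusted p = 0.001235), and Pkm at 0.86 (SE 0.13, adjusted p = 0.00154). The falls were P4ha1 (−0.83 (SE 0.11, adjusted p = 0.000424)), Hk1 (−1.56) and Hk2 (−0.51), none called after rescaling. The call for Hk1 in EAE was lost without control library 1, 2 or 3, with log2 differences of −1.93 to −0.95 and adjusted p of 0.0143 to 0.0853 over the 6 leave-outs. The call for Hk2 in EAE was lost without control library 1, 2 or 3 or GFP-negative library 1 or 3, with log2 differences of −0.69 to −0.37 and adjusted p of 0.00821 to 0.134 over the 6 leave-outs. Monocyte-derived markers were 8.95 to 12.4 TPM in EAE controls, with Ly6c2 and Chil3 at 0, and 66.85 to 119 TPM in GFP-negative cells. In 5xFAD the leading rises were Pkm at 1.12 (SE 0.11, adjusted p = 7.12e-06), Mif at 1.304 (SE 0.15, adjusted p = 3.68e-05), Gapdh at 0.73 (SE 0.088, adjusted p = 7.01e-05), Tpi1 at 1.02 (SE 0.13, adjusted p = 0.00014), Pgk1 at 1.01 (SE 0.13, adjusted p = 0.000156) and Egln3 at 3.36 (SE 0.46, adjusted p = 0.000244). Hk2 fell (−0.57 (SE 0.17, adjusted p = 0.0414)) and was not called after rescaling. The call for Hk2 in 5xFAD was lost without control library 2 or 3 or GFP-negative library 1, 2, 3 or 4, with log2 differences of −0.67 to −0.46 and adjusted p of 0.0268 to 0.11 over the 8 leave-outs. Monocyte-derived markers were lower in these 5xFAD cells (4.64 to 20.3 TPM) than in controls (27.3 to 61.02 TPM). Hif1a, too, was higher in GFP-negative 5xFAD and glioma cells than in controls, by 1.49 (SE 0.26, adjusted p = 0.00197) and 0.78 (SE 0.14, adjusted p = 0.000513).

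Over all 6 models the GFP-negative difference varied for 21 of 29 members, 72.4%, beside 48.3% of genes, and for 19 (39.4% of genes) with each table's own spread, those lost being Hk1 and Hk3. Mif, Pkm, Pgk1, Tpi1, Gapdh, Eno1 and Ldha were among the 19, each with an adjusted p below 0.05 in both versions.

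Against the reference, the difference of GFP-positive cells is the sum of both differences above. After cuprizone 11 of 31 members rose and 2 fell, beside 18.2% of all genes called, 4.50% higher and 13.7% lower. In glioma 22 of 32 rose and 4 fell, beside 63.7%, 17.7% higher and 45.9% lower. In EAE 15 of 32 rose and 4 fell, beside 29.8%, 6.91% higher and 22.9% lower. In 5xFAD 17 of 30 rose and 6 fell, beside 40.0%, 6.11% higher and 33.9% lower. After the P6 stroke 4 of 30 rose and 2 fell, beside 3.11%, 0.556% higher and 2.56% lower. After the P28 stroke 15 of 31 rose and 5 fell, beside 36.0%, 7.56% higher and 28.4% lower. After rescaling 13 rose and 1 fell after cuprizone (6.80% and 3.81% of all genes), 23 and 2 in glioma (28.2% and 23.6%), and 17 and 1 after the P28 stroke (12.8% and 8.61%). In EAE 19 then rose (10.3%), in 5xFAD 17 (12.4%) and after the P6 stroke 8 (0.830%), and none fell. The P6 count was 0 without contralateral library 1 and 8 without GFP-positive library 1. Tpi1, Pgk1 and Mif rose in all 6 models and Egln3 in all 5 where it was tested. Egln3 was tested after cuprizone only because its GFP-positive libraries passed the filter. The call for Egln3 in EAE was lost without any 1 of the 6 libraries, with log2 differences of 0.83 to 1.045 and adjusted p of 0.0508 to 0.1145 over the 6 leave-outs.

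The median member difference from reference was 1.31 in glioma and between 0.02 and 0.62 in the other models. In glioma Mif stood at 2.65 (SE 0.15, adjusted p = 2.87e-08), Pkm at 2.515 (SE 0.15, adjusted p = 3.22e-08), Ldha at 2.16 (SE 0.15, adjusted p = 1.14e-07), Tpi1 at 2.398 (SE 0.16, adjusted p = 1.16e-07) and Pfkp at 3.53 (SE 0.24, adjusted p = 1.34e-07). In 5xFAD Pkm stood at 1.66 (SE 0.11, adjusted p = 2.17e-08), Gapdh at 1.24 (SE 0.088, adjusted p = 4.88e-08), Mif at 2.07 (SE 0.15, adjusted p = 4.88e-08) and Egln3 at 4.24 (SE 0.46, adjusted p = 4.49e-06). In EAE Aldoa stood at 1.22 (SE 0.093, adjusted p = 7.58e-06), Mif at 1.82 (SE 0.14, adjusted p = 8.58e-06) and Pkm at 1.615 (SE 0.13, adjusted p = 1.35e-05). After the P28 stroke Mif stood at 1.86 (SE 0.13, adjusted p = 6.06e-07), Tpi1 at 1.13 (SE 0.12, adjusted p = 1.54e-05) and Ldha at 1.05 (SE 0.12, adjusted p = 2.04e-05). After cuprizone Pkm stood at 0.95 (SE 0.11, adjusted p = 7.60e-05), Mif at 1.04 (SE 0.14, adjusted p = 0.000181) and Egln3 at 2.79 (SE 0.40, adjusted p = 0.000365). After the P6 stroke the rises were Pgk1 at 0.45 (SE 0.090, adjusted p = 0.0246), Tpi1 at 0.44 (SE 0.093, adjusted p = 0.0302), Mif at 0.49 (SE 0.11, adjusted p = 0.0320) and Bnip3 at 0.40 (SE 0.093, adjusted p = 0.0394), calls that were lost in 6, 6, 6 and 7 of the 8 leave-outs.

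Against these rises, Ldhb and P4ha1 were lower in 5 models each, all but the P6 stroke; after rescaling P4ha1 was called in none and Ldhb in 2, cuprizone (−0.38) and glioma (−0.97). Hk2 was lower in glioma, 5xFAD and both strokes, Hk3 in 5xFAD and both strokes, Pfkfb4 in glioma, EAE and 5xFAD, Hk1 in EAE and the P28 stroke, and Pdk1 in 5xFAD. Of these, Pfkfb4 in glioma (−0.41) and Hk1 after the P28 stroke (−0.78) were still called after rescaling. Over the leave-outs the call was lost in 6 of 6 for Hk1 in EAE, in 7 of 8 for Hk2 and for Hk3 after the P6 stroke, in 5 of 8 for Hk2 after the P28 stroke, in 4 of 8 for Pdk1 in 5xFAD and in 2 of 6 for Pfkfb4 in EAE. At the entry step the rises were Hk3 in glioma, at 0.99, and in the 4 adult models the carrier Slc2a1 (1.204 after cuprizone, 0.96 in glioma, 0.58 in EAE and 0.59 in 5xFAD). The call for Slc2a1 after cuprizone was lost without control library 1, 2 or 3 or GFP-positive library 1, 2 or 3, with log2 differences of 1.05 to 1.56 and adjusted p of 0.002775 to 0.117 over the 7 leave-outs. The call for Slc2a1 in EAE was lost without control library 1 or 2 or GFP-positive library 1 or 3, with log2 differences of 0.54 to 0.62 and adjusted p of 0.0363 to 0.0637 over the 6 leave-outs. The call for Slc2a1 in 5xFAD was lost without control library 1 or 2 or GFP-positive library 1, 2, 3 or 4, with log2 differences of 0.48 to 0.68 and adjusted p of 0.0346 to 0.121 over the 8 leave-outs.

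A further 83 genes in 5 lists around the pathway were counted the same way. Of other glucose carriers and glycolytic enzymes, GFP-positive against GFP-negative cells gave 0 of 13 higher and 2 lower after cuprizone, 1 and 2 of 14 in glioma, 0 and 1 of 14 in EAE, 0 and 1 of 12 in 5xFAD, 1 and 0 of 14 after the P6 stroke and 1 and 4 of 13 after the P28 stroke. Of all genes, 2.70% were higher and 7.49% lower after cuprizone, and 1.02% and 7.14% in 5xFAD. The shares were 1.03% and 2.33% after the P6 stroke, and 5.86% and 23.2% after the P28 stroke. In glioma 0.927% were higher and 831 of 14461 genes lower, and in EAE 0.252% and 59 of 13513. Slc2a5, the fructose carrier GLUT5 that marks microglia among brain cells, fell in 5 of the 6. Its level after cuprizone was 175 ± 51.7 TPM in the GFP-positive (SD, n = 3) against 721 ± 46.1 TPM in the GFP-negative libraries (SD, n = 3; log2 difference −2.08, adjusted p = 1.35e-05). In glioma it was 15.8 ± 9.196 TPM in the GFP-positive (SD, n = 4) against 119 ± 56.6 TPM in the GFP-negative libraries (SD, n = 4; log2 difference −2.925, adjusted p = 0.00198). In 5xFAD it was 246.5 ± 24.4 TPM in the GFP-positive (SD, n = 4) against 649 ± 51.7 TPM in the GFP-negative libraries (SD, n = 4; log2 difference −1.39, adjusted p = 1.93e-06). The falls in EAE and after the P28 stroke were −1.33 (adjusted p = 0.0394) and −1.51 (adjusted p = 6.89e-05), and all 5 were still called after rescaling, at −1.79, −2.75, −1.403, −1.04 and −1.17 for cuprizone, glioma, EAE, 5xFAD and the P28 stroke. Slc2a5 against Slc2a1 moved in opposite directions after cuprizone. Slc2a6, a lysosomal hexose carrier, rose after the P28 stroke, at 51.6 ± 14.7 TPM in the GFP-positive (SD, n = 4) against 5.065 ± 2.301 TPM in the GFP-negative libraries (SD, n = 4; log2 difference 3.15, adjusted p = 2.55e-05). The enolase Eno3 fell in glioma by 1.296 (adjusted p = 0.00835).

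All 8 pentose phosphate genes were tested and limma called 0 of them between GFP-positive and GFP-negative cells in each of the 6 models, and against control GFP-negative glioma cells had 4 higher and 1 lower, where 16.0% of all genes were called higher and 36.8% lower. Of 11 tested genes of pyruvate entry to mitochondria, 1 fell after cuprizone and 2 after the P28 stroke, beside 7.49% and 23.2% of all genes lower. Of the HIF pathway regulators Arnt, the partner of HIF-1 alpha, fell in glioma, −0.49 (adjusted p = 0.0403), after the P6 stroke, −0.52 (adjusted p = 0.0473), and after the P28 stroke, −0.98 (adjusted p = 0.0002235); only the last was called after rescaling (−0.65). Cited2, which competes with HIF-1 alpha for its coactivator, rose after the P6 stroke, 1.12 (adjusted p = 0.0296).

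Other HIF targets were called in both directions in some models. After cuprizone 1 of 19 rose and 4 fell, beside 2.70% of all genes higher and 7.49% lower. In glioma 1 of 29 rose and 1 fell, beside 0.927% higher and 831 of 14461 genes lower. In EAE 0 of 23 were called, beside 0.688% of genes. In 5xFAD 2 of 20 fell, beside 7.14% lower. After the P6 stroke 0 of 22 were called, beside 3.36%. After the P28 stroke 5 of 22 rose and 4 fell, beside 5.86% higher and 23.2% lower. Bhlhe40, a transcription factor, rose after cuprizone to 26.97 ± 10.8 TPM in the GFP-positive (SD, n = 3) against 5.26 ± 2.05 TPM in the GFP-negative libraries (SD, n = 3; log2 difference 2.13, adjusted p = 0.00732), and after the P28 stroke to 12.01 ± 2.35 TPM in the GFP-positive (SD, n = 4) against 0.7675 ± 1.14 TPM in the GFP-negative libraries (SD, n = 4; log2 difference 3.05, adjusted p = 8.08e-05). Hmox1, heme oxygenase, rose in glioma, 0.77 (adjusted p = 0.0463), and after the P28 stroke, 0.88 (adjusted p = 0.000335). Ccng2 fell after cuprizone, −1.23 (adjusted p = 0.00107), and was still called after rescaling. Against control, GFP-negative glioma cells had 14 of 29 other HIF targets higher and 9 lower, beside the same 16.0% and 36.8% of all genes, led by Nampt at 2.75 (adjusted p = 2.05e-07).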

How the data were processed

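The 67 bulk libraries analysed here come as 6 tables of TPM per gene symbol, 1 per model, deposited by the authors. The submitters' processing notes name STAR 2.7.5c, RSEM 1.3.3, cutadapt 2.10, edgeR 3.32.0 and R 4.1.3 for the series, with builds GRCm38 and mm10, without saying which step used which; no source used here gives the sequencing depth, and no counting interval can be had. Another 4 samples of the series, hashed single-cell pools, were not analysed here. The 32 members, the 83 genes of the 5 other lists and the marker lists of 11 cell classes were chosen with earlier results of these data known.

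TPM were used as deposited and turned into log2(TPM + 1), with a pseudocount of 1. A gene was tested in a table where at least as many libraries as its smallest group holds reached 1 TPM, which kept 12877, 14461, 13513, 12532, 13136 and 14303 genes for cuprizone, glioma, EAE, 5xFAD, P6 stroke and P28 stroke. Each table was fitted alone with limma 3.58.1 in R 4.3.3 (group means, moderated variances with a mean trend), with Benjamini-Hochberg adjustment over all tested genes and a threshold of 0.05. No test compares levels between tables. The 3 contrasts of a table share libraries, so no overlap between them is given. Differences between models came from 1 joint fit with groups nested in tables and table-level weights; a version with each table's own spread was added after seeing the data. Tested on simulated data with 100 genes changed 2-fold and 100 changed 4-fold in each table, the GFP-positive against GFP-negative fits recovered 35 to 69 and 61 to 90 of them, with 3.11 to 7.14% unchanged genes among their calls.

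Replicate numbers were not taken as pairs, since the labels do not say that they mark an animal. Of 66 same-numbered pairs 4 had correlated deviations over 0.1, and no comparison had all of them over it. No libraries were identical, and no column lacked a sample. Values are given in every library for Slc2a1, Hif1a and the members called in 1 direction in at least 3 GFP-positive against GFP-negative contrasts; in the other contrasts up to 6 called members are given by adjusted p, with those called against the majority, and up to 4 genes of the other lists. Values in every library for Hk2, Pfkp, Slc16a3 and Egln3 were chosen after their values were seen. Alternatives were a pseudocount of 0.1, median-of-ratios scaling, a replicate block, no filter, a filter of 5 TPM, leaving out each library, the cuprizone contrasts with male controls alone and, added after seeing the data, a sex term for the P6 stroke; sex was read from Xist against Ddx3y. Promoter windows came from a RefSeq table of build GRCm38.p6, with 31 of 32 members matched, and gene positions from GENCODE annotation of GRCm38.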

Additional observations from a re-analysis of the deposited data

Results flagged for a closer look

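In 6 of the 156 groups of 4 libraries examined, for the member mean and the members given in every library, 1 library lay far from the other 3; chance gives about 1 in 20. Slc2a1 stood at 28.5 TPM in cuprizone control library 4, with the others at 9.31 to 10.6. It stood at 32.55 TPM in 5xFAD GFP-negative library 2, with the others at 19.4 to 20.8, and at 11.1 TPM in P6 GFP-negative library 4, with the others at 14.4 to 14.9. Pgk1 stood at 87.7 TPM in 5xFAD control library 1, with the others at 71.7 to 73.9, and at 109.7 TPM in P6 GFP-negative library 4, with the others at 136 to 141. Hif1a stood at 14.5 TPM in P6 GFP-positive library 4, with the others at 42.85 to 50.9.

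The difference between GFP-positive and GFP-negative cells differed between the 6 models for 10 members by limma's F test, with these adjusted p-values: Slc2a1 (0.0192), Hk2 (0.00309), Hk3 (4.99e-06), Gpi1 (0.0379), Aldoa (0.00465), Gapdh (0.00478), Pkm (0.00679), Mif (9.28e-05), Bnip3 (0.0247) and Hif1a (0.0107). With each table's own spread Slc2a1, Gapdh, Pkm and Bnip3 were no longer called. The difference between GFP-negative and reference cells differed between the models for 21 members by the same test, with these adjusted p-values: Hk1 (0.01035), Hk2 (0.00817), Hk3 (0.0412), Gpi1 (8.17e-06), Pfkp (4.30e-07), Aldoa (3.13e-06), Tpi1 (5.19e-11), Gapdh (4.86e-10), Pgk1 (6.18e-13), Pgam1 (5.83e-05), Eno1 (1.51e-10), Pkm (1.37e-13), Ldha (6.67e-09), Ldhb (1.98e-05), Slc16a3 (0.000858), Pfkfb4 (0.000991), Mif (1.97e-12), Bnip3 (0.00297), Hif1a (0.00287), P4ha1 (1.39e-06) and Ankrd37 (0.005995). Of these, Hk1 and Hk3 were not called with each table's own spread. The GFP-positive difference was larger after the P28 than after the P6 stroke for 9 members, with these adjusted p-values by limma: Gpi1 (0.005165), Aldoa (0.0212), Tpi1 (0.0389), Gapdh (0.0113), Pgk1 (0.0326), Pkm (0.00564), Pfkfb3 (0.0355), Mif (0.000446) and Hif1a (0.03503).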

How the results depend on the processing

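Rescaling by median-of-ratios factors left 426 of 558 member differences with the same sign and call and changed 132. The mean difference over the 32 members (log2(TPM + 1)) for GFP-positive against GFP-negative cells became 0.656 after cuprizone, 0.507 in glioma, 0.405 in 5xFAD, 0.106 after the P6 and 0.648 after the P28 stroke; for GFP-negative against control it became 1.09 in glioma, 0.494 in EAE and 0.687 in 5xFAD. For GFP-positive against reference it became 0.658 after cuprizone, 1.598 in glioma, 0.785 in EAE, 1.09 in 5xFAD, 0.209 after the P6 and 0.748 after the P28 stroke. The called members became 1 in EAE and 10 in 5xFAD for GFP-positive against GFP-negative cells. Falls that turned above 0 were Hk2 in EAE GFP-negative against control cells (0.028), Ldhb in EAE (0.057), P4ha1 in 5xFAD (0.11) and Ldhb after the P28 stroke (0.11) for GFP-positive against reference cells, and Ldhb (0.026) and P4ha1 (0.0034) after the P28 stroke for GFP-positive against GFP-negative cells. A pseudocount of 0.1 moved the mean difference to 0.535 for the cuprizone and 0.415 for the P28 GFP-positive against GFP-negative contrasts, and to 0.154 and 0.569 for P28 GFP-negative and GFP-positive cells against contralateral. With no filter the GFP-positive against GFP-negative counts were 7 after cuprizone, 0 in EAE and 0 after the P6 stroke, and 2 for P6 GFP-positive against contralateral. The replicate block changed 2 counts by more than 1.5 times, to 1 in EAE and 8 after the P6 stroke for GFP-positive against GFP-negative cells. Whether the numbers mark pairs cannot be told from the labels. Every library was best correlated with its own number in 1 of 18 comparisons (r from −0.08 to 0.20). Between GFP-positive and GFP-negative cells this held for 2 of 3 libraries after cuprizone, 3 of 4 in glioma and 1 of 3 in EAE. It held for 3 of 4 in 5xFAD, 3 of 4 after the P6 stroke and 2 of 4 after the P28 stroke. In the P6 stroke libraries 1 and 2 read as male and 3 and 4 as female in each group, and each library of GFP-negative against contralateral cells was best correlated with its own number; a fit with sex as a term, added after seeing the data, kept the P6 counts at 5 for GFP-positive against GFP-negative cells and at 0 and 6 for GFP-negative and GFP-positive cells against contralateral. Each table's own spread gave 6 members varying between models. Against the male cuprizone controls alone, 52 of 62 member results kept sign and call, 9 uncalled differences changed sign and Aldoc was called in GFP-positive cells (1.78, limma adjusted p = 0.0494). The cause of these shifts was not tested.

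Leaving out 1 library gave these ranges of called members for GFP-positive against GFP-negative cells, GFP-negative against reference and GFP-positive against reference: 5 to 10, 0 to 0 and 11 to 16 after cuprizone; 8 to 11, 23 to 27 and 26 to 28 in glioma; 0 to 6, 8 to 14 and 13 to 15 in EAE; 3 to 7, 11 to 13 and 21 to 24 in 5xFAD; 0 to 9, 0 to 0 and 0 to 8 after the P6 stroke; 16 to 19, 0 to 0 and 19 to 21 after the P28 stroke. The mean differences ranged, in that order, over 0.357 to 0.470, −0.097 to 0.034 and 0.298 to 0.435; 0.252 to 0.388, 0.658 to 0.752 and 0.954 to 1.09; 0.196 to 0.452, −0.093 to 0.163 and 0.328 to 0.378; 0.0286 to 0.160, 0.334 to 0.4655 and 0.465 to 0.533; −0.040 to 0.055, 0.018 to 0.082 and 0.0073 to 0.106; 0.309 to 0.376, 0.070 to 0.0905 and 0.389 to 0.457. Of 214 calls of a member in a contrast 162 held under every leave-out and 52 were lost under some. The Hif1a difference of EAE GFP-negative against control cells, not called with all libraries, ranged from −0.351 to 0.52 over the leave-outs and turned to its highest value, with a call, without GFP-negative library 1 (limma adjusted p = 0.0114). Depth is unknown, and with 3 or 4 libraries a group the simulated fits missed 31 to 65 of 100 genes changed 2-fold.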
